A study of Mus musculus with 12 samples.

Results

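The further loss of *Stra8* on a *Smad4*-deleted background was read from 6 of the 12 arrays of the series, by setting 3 DKO ovaries against 3 *Smad4 (Stella)* ovaries at E14.5. The DKO ovaries were *Smad4*flox/flox MerCreMer *Stra8*-/- and the *Smad4 (Stella)* ovaries *Smad4*flox/flox MerCreMer *Stra8*+/-. Both groups therefore carried the floxed *Smad4* alleles and the tamoxifen-inducible Cre, and they differed in the second *Stra8* allele. No ovaries that had lost *Stra8* alone were among the arrays, so that the effect of this loss without *Smad4* deletion was not analysed here. The arrays served a study of how germ cells of the fetal ovary choose between the female and the male pathway, and the other 6 arrays held 3 control ovaries and 3 control testes. Control ovary 1 and the control testes were *Smad4*Flox/+ StellaMerCreMer *Stra8*+/-, control ovary 2 was *Smad4*Flox/+ *Stra8*+/- and control ovary 3 *Smad4*Flox/Flox *Stra8*+/-, so that every control was heterozygous for *Stra8* as well. Pregnant mice of a mixed background received tamoxifen at E9.5 and E10.5. The Cre was driven by the regulatory element of *Stella*, a gene of germ cells, its efficiency varied between animals, and RNA of each sample came from 1 pair of whole gonads. Germ cells that escaped recombination, and all somatic cells, are thus part of every measurement. In whole gonads, fewer cells of a type and less RNA per cell cannot be told apart.

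Germ cells of the fetal ovary enter meiosis under retinoic acid, which switches on *Stra8*, while those of the fetal testis are shielded from it, arrest in G1 and turn on male genes such as *Nanos2*. STRA8 is a nuclear protein that acts with its partner MEIOSIN on the promoters of genes for meiotic chromosomes. SMAD4 is the common partner of the SMADs that carry BMP and activin or Nodal signals to the nucleus.

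A relative level below is the log2 intensity of a gene minus the 75th percentile of its array, so that 0 marks this percentile. Where 3 levels are set against 3 others, those of *Smad4 (Stella)* ovaries 1 to 3 come first and those of DKO ovaries 1 to 3 follow. After probes that were dim in every group had been left out, 18666 genes were tested with limma, and a call needed both a 1.5-fold change or more and an adjusted p below 0.05. Probes well above background made up 64.0% to 68.8% of all in the *Smad4 (Stella)* arrays and 60.4% to 70.4% in the DKO arrays, and 0 spots were saturated. Across genes, r between replicates was 0.989 to 0.992 and 0.980 to 0.984. DKO ovary 3 shared slide 3 with all 3 *Smad4 (Stella)* ovaries, whereas DKO ovaries 1 and 2 were on slide 2. With the slide as a block the comparison therefore comes down to DKO ovary 3 against the 3 arrays of its own slide, and such values are given beside most groups of genes. The labels call the samples biological triplicates without naming litters, so that p-values measure the spread between these samples.

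The targeted gene was lower but far from absent. *Stra8* was at 6.34, 6.41 and 6.28 in *Smad4 (Stella)* ovaries 1 to 3 and 5.61, 5.28 and 5.38 in DKO ovaries 1 to 3. The groups did not overlap, and the log2 fold change was -0.92 ± 0.18 SE (adjusted p = 0.0101), while the control testes were at -2.98, -2.56 and -2.32. The DKO level thus remained closer to that of ovaries than of testes. Whether the probe lies in the deleted part of the gene is not given in the sources used here, so this value neither checks nor contradicts the labels. With the slide as a block the fold change was -0.96 and missed the threshold (adjusted p = 0.0686). *Smad4* was at 2.17, 2.26 and 2.08 against 2.09, 1.96 and 2.19, a difference of -0.09 ± 0.14 SE with an adjusted p = 0.731, so the whole-gonad level did not separate the groups.

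The added loss of *Stra8* went with 2 broad movements. Of 50 genes of meiotic chromosomes tested, 33 were called lower. All 9 regulators of male germ cells, 11 of 21 genes of the piRNA pathway and 9 of 21 pluripotency and primordial germ cell factors were called higher. Of 82 markers of somatic cells, 70 stayed within 1.5-fold. Most genes did so, as the quartiles over all genes tested were at log2 fold changes of -0.19 and 0.24. Over all genes, 822 were called higher in DKO ovaries, which is 4.4% of those tested, and 752 were called lower, which is 4.03%. Of these, 433 rose and 386 fell at least 2-fold, and 94 rose and 105 fell at least 4-fold. Every DKO array was above every *Smad4 (Stella)* array for 814 of the genes called higher, against 16.9% of all genes tested, and below for 750 of those called lower, against 14.3%. DKO ovary 3 taken alone lay above every *Smad4 (Stella)* array of its slide for 814 of the genes called higher, against 37.4% of all genes. It lay below for 751 of those called lower, against 31%. The calls used these same arrays, so such positions largely follow from the calls and are a description. In the comparison of *Smad4 (Stella)* with control ovaries, which shares the *Smad4 (Stella)* arrays, 25 genes were called higher (0.134%) and 27 lower (0.145%). Control ovary 1 was on slide 1 and control ovaries 2 and 3 on slide 2, so no slide held both groups of that comparison.

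The number of rises moved more with single arrays than the number of falls. Over the genes called higher, the median log2 difference from the mean of the *Smad4 (Stella)* ovaries was 1.22, 1.05 and 0.81 in DKO ovaries 1, 2 and 3, and over those called lower it was -1.05, -1.06 and -1.01. With the slide as a block 220 genes were called higher (1.18%) and 700 lower (3.75%). Among the 822 genes, 147 kept their call under this block and all kept their direction, and among the 752 genes these numbers were 431 and 752. The kept direction is no separate support, since DKO ovary 3 entered both the calls and the block value. Leaving out DKO ovary 1 gave 497 genes called higher, leaving out *Smad4 (Stella)* ovary 2 gave 354 and leaving out *Smad4 (Stella)* ovary 3 gave 385. Without *Smad4 (Stella)* ovary 2, 499 genes were called lower. Without scaling between arrays the counts were 112 higher and 405 lower, and under normexp background correction 86 and 138. The median fold change of all genes was 0.01, and it moved to -0.23 and 0.27 under these settings.

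**Figure D1:**
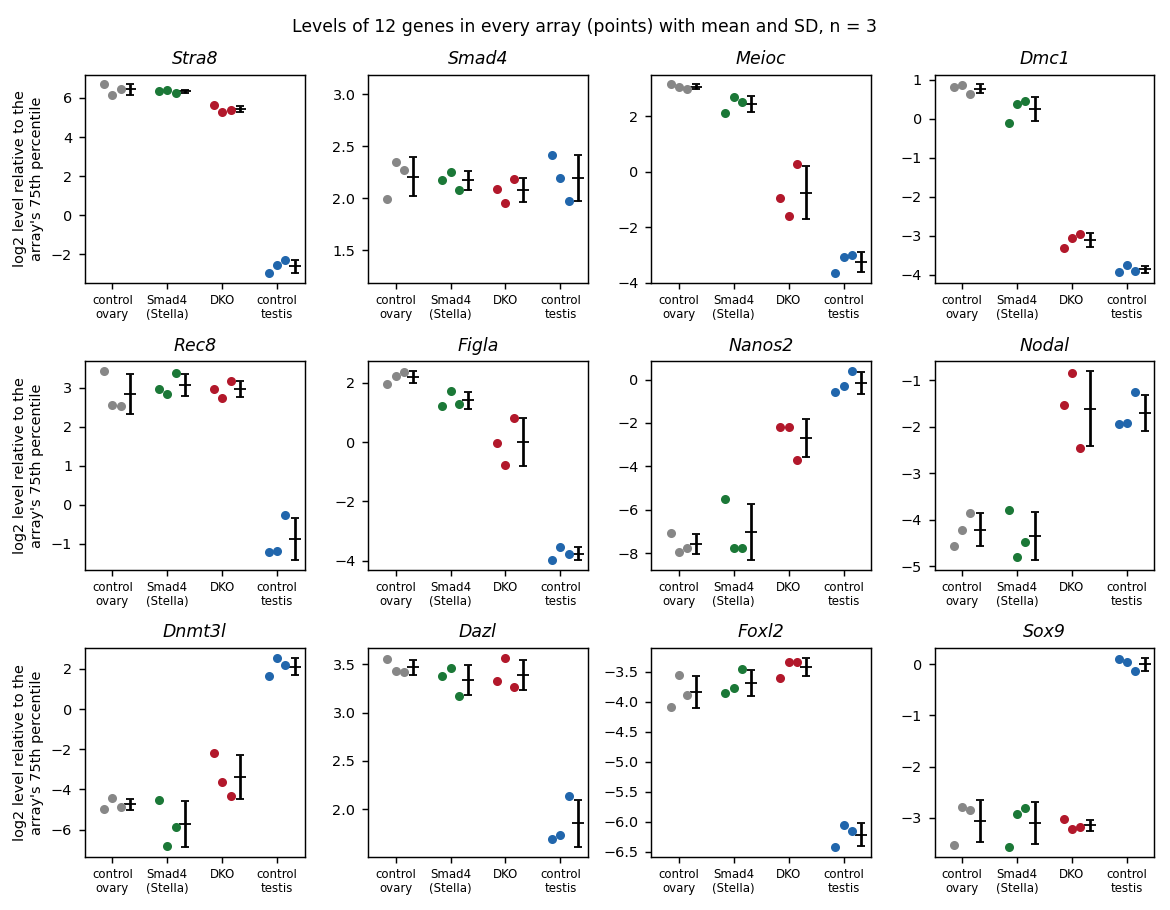
Relative level of 12 genes in all 12 arrays, on a log2 scale where 0 is the 75th percentile of the array. Each point is 1 array, and the black marks give the mean and SD of each group (n = 3). *Stra8* lies between 5.28 and 5.61 in the DKO ovaries, *Meioc* and *Dmc1* are lower there than in the *Smad4 (Stella)* ovaries, *Nanos2* and *Nodal* higher, and *Smad4*, *Rec8*, *Dazl* and *Sox9* overlap between both groups.

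Regulators of meiotic entry split. Of 12 such genes tested, 3 were called lower and 1 higher, beside 4.03% and 4.4% of all genes. Their median log2 fold change was -0.02 against 0.01 over all genes tested. The largest change was in *Meioc*, whose protein acts with YTHDC2 to keep germ cells in prophase of meiosis. It was at 2.12, 2.70 and 2.50 in *Smad4 (Stella)* ovaries 1 to 3 and -0.95, -1.59 and 0.29 in DKO ovaries 1 to 3, a fall without overlap in which DKO ovary 3 was the least low (-3.19 ± 0.39 SE, adjusted p = 0.000747). *Ythdc2* itself fell by 1.0 (SE 0.11, adjusted p = 0.000432), and both calls held with the slide as a block (adjusted p = 0.0125 and 0.0162). *Dmrt1*, a transcription factor of germ cells and Sertoli cells, was at -1.77, -3.06 and -3.33 against -1.52, -0.80 and -1.02 and was called higher (adjusted p = 0.0295), but not with the slide as a block (adjusted p = 0.135). *Mga* and *Max*, whose proteins hold back meiotic genes as parts of a Polycomb complex, differed by -0.19 and 0.06 and were not called.

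No gene of the retinoic acid pathway was called among 19 tested, by limma, with or without the slide as a block, and the methods' t-test at an unadjusted p under 0.05 called 1 higher. Over all genes 8.43% were called in either direction, so a count of 0 among 19 is close to that share. The median of the 19 was 0.02. *Cyp26b1*, the enzyme that degrades retinoic acid in the fetal testis, was at -0.84, -0.76 and -1.35 in *Smad4 (Stella)* ovaries 1 to 3 and -1.34, -1.23 and -1.38 in DKO ovaries 1 to 3, and *Rarb*, itself a target of the signal, at -0.52, -0.78 and -0.79 against -0.65, -1.26 and -0.60. Both sets of values overlap. *Rdh10*, which makes the precursor of retinoic acid, had a difference of -0.39 (adjusted p = 0.0261), short of 1.5-fold.

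Genes of the synaptonemal complex, the zipper between paired chromosomes, and of the chromosome axis were lower nearly throughout. Among 10 members, 9 were called lower and 0 higher, beside 4.03% and 4.4% of all genes, with a median of -1.49. With the slide as a block 8 were called lower, beside 3.75% of all genes. *Sycp3*, a core of the axis, was at 3.52, 3.80 and 3.49 in *Smad4 (Stella)* ovaries 1 to 3 and 2.52, 2.05 and 2.76 in DKO ovaries 1 to 3 (-1.16 ± 0.18 SE, adjusted p = 0.00254). The central element genes *Syce3* and *Tex12* fell by 2.21 and 1.98, and *Sycp2*, which binds SYCP3, by 2.20. *Hormad1* and *Hormad2*, which mark unsynapsed axes, fell by 1.56 and 1.46. The exception was *Sycp1*, the transverse filament, at 2.90, 3.53 and 3.12 against 2.12, 2.38 and 2.92. DKO ovary 3 overlapped the other group for this gene and the fold change was -0.71 ± 0.26 SE (adjusted p = 0.103).

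Genes for meiotic DNA breaks and their repair followed, with 17 of 26 called lower and 0 higher, beside 4.03% and 4.4% of all genes. Their median was -1.26. The number called lower was 10 with the slide as a block, beside 3.75% of all genes, and 5 under normexp background correction. *Spo11*, the enzyme that cuts the DNA, was at -1.25, -0.83 and -0.95 in *Smad4 (Stella)* ovaries 1 to 3 and -2.45, -2.94 and -2.21 in DKO ovaries 1 to 3 (-1.52 ± 0.23 SE, adjusted p = 0.00225). *Dmc1*, the meiotic recombinase, was at -0.10, 0.37 and 0.47 against -3.30, -3.06 and -2.95, about 10.2-fold lower (-3.35 ± 0.16 SE, adjusted p = 4.13e-06). The replicates of either group spanned far less than this gap. Under normexp the difference in *Dmc1* was -2.07 and still called (limma adjusted p = 0.0483). *Iho1* and *Mei1*, needed for breaks to form, fell by 2.76 and 2.94, *Meiob*, which binds single-stranded DNA, by 2.97, and *Msh4* and *Msh5*, which stabilise crossover intermediates, by 1.30 and 1.95. *Mcmdc2* was not well above background on any DKO array and was at least 1.47-fold lower, a direction that turned under normexp background correction. *Trip13*, a remodeller of HORMA-domain proteins, differed by 0.23 and was not called. *Rec114*, which acts with IHO1 and MEI4, was not called either (-0.17 ± 0.16 SE, adjusted p = 0.564).

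**Figure D2:**
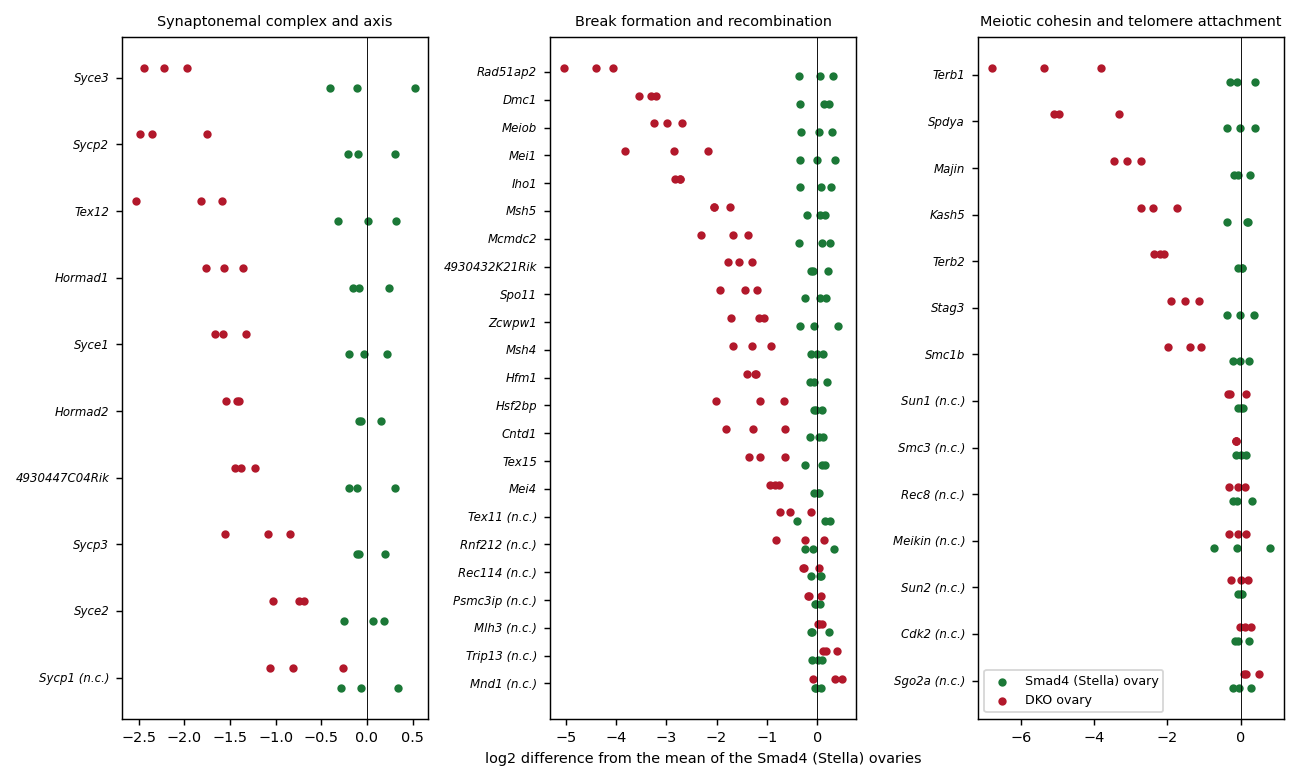
Log2 difference of each array from the mean of the *Smad4 (Stella)* ovaries for 47 of the 50 tested members of 3 lists of meiotic chromosome genes, ordered by fold change. Green points are the 3 *Smad4 (Stella)* arrays and red points the 3 DKO arrays, and n.c. marks genes that were not called. The red points lie left of the green ones for the 9, 16 and 7 genes drawn that were called lower, whereas *Rec8*, *Mnd1* and *Trip13* overlap or lie near 0.

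Cohesin and telomere genes held some of the largest falls beside members that were not called. Of 14 tested, 7 were called lower and 0 higher, beside 4.03% and 4.4% of all genes, with a median of -0.83. The number called lower was 4 with the slide as a block, beside 3.75% of all genes, and 2 under normexp. TERB1, TERB2 and MAJIN tie telomeres to the nuclear envelope in meiosis. *Terb1* was at 0.50, 0.68 and 1.17 in *Smad4 (Stella)* ovaries 1 to 3 and -6.02, -4.59 and -3.03 in DKO ovaries 1 to 3, with DKO ovary 3 the least low (-5.33 ± 0.65 SE, adjusted p = 0.000756). *Majin* and *Terb2* fell by 3.10 and 2.23, and *Kash5*, which links telomeres to the motors outside the nucleus, by 2.28. *Spdya*, the activator of CDK2 at telomeres, was at -1.04, -0.29 and -0.69 against -4.0, -5.76 and -5.62 (-4.46 ± 0.88 SE, adjusted p = 0.00978, and 0.0815 with the slide as a block). *Cdk2* differed by 0.13 and was not called. Among the meiotic cohesins, *Smc1b* and *Stag3* fell by 1.49 and 1.52, losing their calls with the slide as a block (adjusted p = 0.0516 and 0.0861). *Rec8*, the meiotic kleisin, was at 2.97, 2.84 and 3.37 against 2.98, 2.74 and 3.17, a difference of -0.10 ± 0.30 SE (adjusted p = 0.889), and the control testes were at -1.21, -1.18 and -0.26.

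The 10 largest falls among genes detected in both groups were, in order, *Lypd4*, *Terb1*, *Reg2*, *Rad51ap2*, *Spdya*, *Inca1*, *Dmrtc2*, *M1ap*, *Spdye4b* and *Dmc1*. *Lypd4*, of the Ly6 family, was at 0.39, 1.21 and 0.72 in *Smad4 (Stella)* ovaries 1 to 3 and -4.92, -6.57 and -2.40 in DKO ovaries 1 to 3 (-5.40 ± 0.79 SE, adjusted p = 0.00209). Its probe lies at chr7:25649704-25649763 of mm9, the build of the array design, near that of *Dmrtc2* at chr7:25662444-25662503, which was at 2.48, 3.08 and 2.78 against -1.07, -1.77 and 0.50 (-3.56 ± 0.45 SE, adjusted p = 0.000902). In both genes DKO ovary 3 was the highest of its group and still below every *Smad4 (Stella)* array. *M1ap*, needed for male meiosis, was at 4.64, 5.18 and 4.82 against 1.69, 1.72 and 0.89 (-3.44 ± 0.23 SE, adjusted p = 2.42e-05). *Rad51ap2* was at 0.65, 1.32 and 1.08 against -4.02, -3.04 and -3.39, and *Inca1*, a cyclin A1 partner, at 0.98, 1.71 and 1.51 against -3.04, -2.95 and -2.14. *Reg2*, a secreted lectin better known from the pancreas, was at -2.08, -0.15 and 0.66 against -4.94, -6.38 and -5.47, with *Smad4 (Stella)* ovary 1 the lowest of its group. *Spdye4b*, a relative of *Spdya*, fell by 3.39. *Lypd4*, *Terb1* and *Spdya* were well above background on 2 of 3 DKO arrays and *Reg2* on 1 of 3. Of these 10 genes, *Spdya* lost its call with the slide as a block. Under normexp 5 lost it, namely *Lypd4* (-2.63, adjusted p = 0.0811), *Terb1* (-2.71, 0.0612), *Reg2* (-2.20, 0.251), *Spdya* (-2.03, 0.188) and *Spdye4b* (-1.31, 0.42).

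Genes not well above background on any DKO array give bounds. *Tgm1*, a transglutaminase, was well above background on 3 of 3 *Smad4 (Stella)* arrays and 0 of 3 DKO arrays and was at least 12.5-fold lower (adjusted p = 4.39e-05). *Ces5a* was at least 5.18-fold lower, *Pkp1* 5.1-fold, *Svs4* 3.96-fold and *Tafa1* 3.78-fold, on the processed intensities. None of the 5 kept its call under normexp, where the log2 differences were -0.84 for *Tgm1* (limma adjusted p = 0.487), -0.09 for *Ces5a*, -0.13 for *Pkp1*, -0.15 for *Svs4* and 0.12 for *Tafa1*, the last with its sign turned, so that these bounds depend on the background correction.

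**Figure D3:**
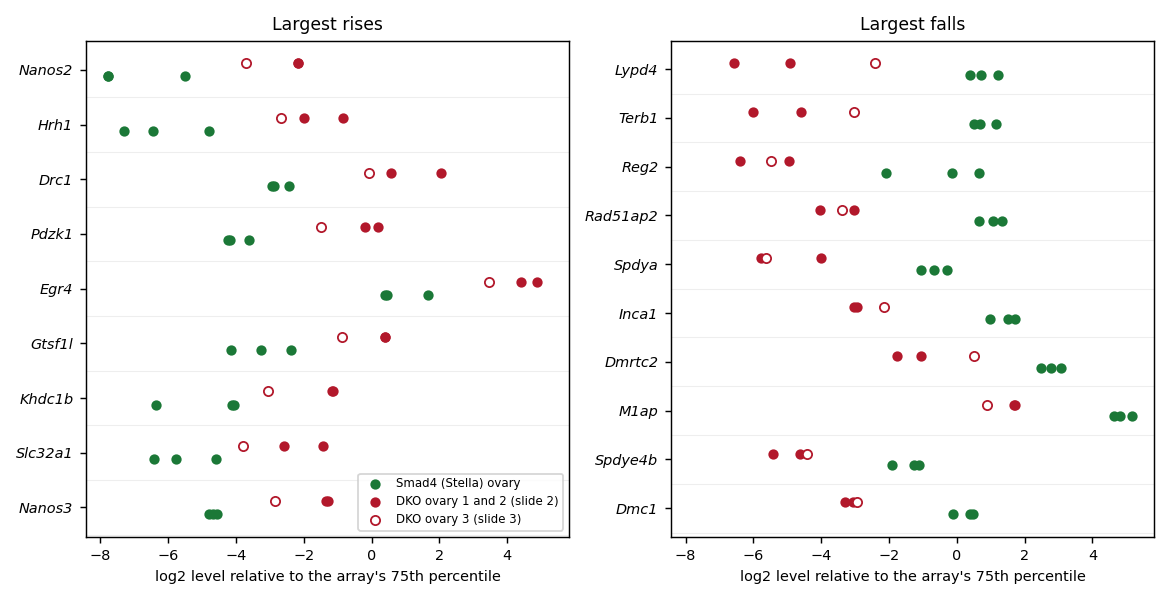
Relative level on a log2 scale of 9 of the 10 genes with the largest rises (left) and of the 10 with the largest falls (right) among called genes detected in both groups. Each point is 1 array, with DKO ovary 3, the array on the slide of the *Smad4 (Stella)* ovaries, drawn open. DKO ovary 3 is the lowest DKO array for each of the 9 rises, and no DKO point falls within the *Smad4 (Stella)* range.

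The stretch of 250 bases before to 50 bases after the start of each gene was searched for 3 short motifs, using the RefSeq promoters of GRCm38.p6 and the first entry of each gene. A promoter was matched by symbol for 12080 of the tested genes, 502 of those called lower and 507 of those called higher. CNCCTCAG, known as the letters bound by STRA8 and MEIOSIN, was present on either strand in 22.9% of the promoters of genes called lower, in 7.69% of those called higher and in 9.31% of all tested genes with a promoter. GCGGGAA, an E2F site, was present in 13.9%, 6.51% and 7.98% in the same order. CACGTG, the E-box of MAX and MGA, showed the opposite order, with 7.17%, 14.0% and 9.84%. Over all 27025 promoters of the reference the shares were 7.97%, 4.66% and 7.24% for the 3 motifs in this order. Within the 3 lists of meiotic chromosome genes, CNCCTCAG was in 6 of 27 promoters of genes called lower and 3 of 13 of those not called, close shares of 22.2% and 23.1%. CACGTG had these same counts, so its low share of 7.17% over all genes called lower did not hold in these lists. GCGGGAA was in 10 of 27 and 4 of 13. Each motif was counted on its own, CACGTG reads the same on both strands, and no binding was measured.

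Among the 10 largest falls, 4 had CNCCTCAG or its reverse complement CTGAGGNG in this window, and these promoters are shown with that of *Stra8*, which had none. Capitals mark the motif, each stretch runs 5′ to 3′ along the gene's own strand, and positions are counted from the first base of the gene, which is 0. The motif starts at -79 in *Lypd4*, at 34 in *Spdya*, at -142 and -16 in *Inca1* and at -111 in *M1ap*. The windows are chr6:34920698-34920997 (+) for *Stra8*, chr7:24869642-24869941 (-) for *Lypd4*, chr17:71551811-71552110 (+) for *Spdya*, chr11:70700106-70700405 (-) for *Inca1* and chr6:82946672-82946971 (+) for *M1ap*.
*Stra8*: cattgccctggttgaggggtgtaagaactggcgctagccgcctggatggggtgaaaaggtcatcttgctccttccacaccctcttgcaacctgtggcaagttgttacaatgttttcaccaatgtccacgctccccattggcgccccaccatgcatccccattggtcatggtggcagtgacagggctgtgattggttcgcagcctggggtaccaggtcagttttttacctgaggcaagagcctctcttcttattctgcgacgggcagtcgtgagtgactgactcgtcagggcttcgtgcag
*Lypd4*: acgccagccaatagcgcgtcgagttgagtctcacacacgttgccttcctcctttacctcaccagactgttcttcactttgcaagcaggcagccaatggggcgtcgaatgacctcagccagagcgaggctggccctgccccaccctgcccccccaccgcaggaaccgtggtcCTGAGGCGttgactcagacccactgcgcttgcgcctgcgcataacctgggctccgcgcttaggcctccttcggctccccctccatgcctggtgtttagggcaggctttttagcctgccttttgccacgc
*Spdya*: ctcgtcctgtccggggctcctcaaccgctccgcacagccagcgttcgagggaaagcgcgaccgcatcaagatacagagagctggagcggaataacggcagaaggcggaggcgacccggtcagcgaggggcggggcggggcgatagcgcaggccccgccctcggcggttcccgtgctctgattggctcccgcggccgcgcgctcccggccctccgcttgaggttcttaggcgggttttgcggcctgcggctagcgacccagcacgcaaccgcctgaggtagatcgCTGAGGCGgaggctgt
*Inca1*: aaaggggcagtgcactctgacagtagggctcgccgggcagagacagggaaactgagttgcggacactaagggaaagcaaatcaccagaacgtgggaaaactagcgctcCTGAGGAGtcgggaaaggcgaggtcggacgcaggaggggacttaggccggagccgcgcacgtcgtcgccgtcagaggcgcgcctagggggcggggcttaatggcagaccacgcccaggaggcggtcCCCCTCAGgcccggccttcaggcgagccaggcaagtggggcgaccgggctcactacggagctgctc
*M1ap*: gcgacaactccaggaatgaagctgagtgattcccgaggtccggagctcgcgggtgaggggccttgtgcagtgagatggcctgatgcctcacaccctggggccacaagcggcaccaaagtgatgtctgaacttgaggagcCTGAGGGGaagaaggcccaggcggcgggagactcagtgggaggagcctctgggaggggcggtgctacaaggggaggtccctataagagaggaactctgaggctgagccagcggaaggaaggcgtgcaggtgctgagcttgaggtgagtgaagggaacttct

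Regulators of the male germ cell rose without exception among the 9 that were tested. All 9 were called higher, beside 4.4% of all genes, with a median log2 fold change of 2.35. The number was 4 with the slide as a block, beside 1.18% of all genes, and 5 under normexp. It was 6 when DKO ovary 1, DKO ovary 2, *Smad4 (Stella)* ovary 2 or *Smad4 (Stella)* ovary 3 was left out. The list was chosen with results of these data known, so its direction is a description. *Nanos2*, the RNA-binding protein that sets the male pathway, was at -5.52, -7.78 and -7.78 in the *Smad4 (Stella)* ovaries, where 1 of 3 arrays detected it, and at -2.18, -2.17 and -3.70 in the DKO ovaries, where all 3 did. The log2 difference was 4.34 ± 0.62 SE (adjusted p = 0.0018, and 0.054 with the slide as a block), but it was 1.66 under normexp and not called (adjusted p = 0.11), and the control testes were higher still at -0.55, -0.32 and 0.40. *Dnmt3l*, the cofactor of de novo DNA methylation in prospermatogonia, was at -4.54, -6.80 and -5.85 against -2.19, -3.65 and -4.31 (2.35 ± 0.60 SE, adjusted p = 0.0294). DKO ovary 3 was only just above the highest *Smad4 (Stella)* array for this gene, and the call was lost with the slide as a block (adjusted p = 0.389). *Egr4*, a zinc finger transcription factor, was at 1.67, 0.39 and 0.44 against 4.87, 4.40 and 3.46, without overlap (3.41 ± 0.40 SE, adjusted p = 0.00059), and kept its call on slide 3 (adjusted p = 0.0224). In DKO ovaries it differed from the control testes, at 3.53, 3.99 and 4.10, by less than the test could call (adjusted p = 0.499). *Morc1* and *Tdrd9*, which silence transposons, rose by 2.46 and 2.19, *Nlrp4c* by 2.51, *Cdh1* by 2.12 and *Dnd1*, a partner of NANOS2, by 1.79.

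Of these regulators, *Egr4*, *Nanos2* and *Morc1* are set here beside the comparison of *Smad4 (Stella)* with control ovaries, which uses the same *Smad4 (Stella)* arrays. Among all 9 tested, 1 was called higher in that comparison and 0 lower, with a median of 0.70. Over all genes, 0.134% were called higher and 0.145% lower. In that comparison no slide held both groups, so genotype and slide cannot be told apart. *Egr4* was 3.25 higher in *Smad4 (Stella)* than in control ovaries (adjusted p = 0.0205) and a further 3.41 higher in DKO ovaries. *Nanos2* differed by 0.56 (adjusted p = 0.637) and then by 4.34, and *Morc1* by 0.41 (adjusted p = 0.419) and then by 2.46.

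The piRNA pathway, which silences transposons in male germ cells, had 11 of 21 members called higher and 1 lower, with a median of 0.84. Over all genes, 4.4% were called higher and 4.03% lower. The counts were 7 and 1 with the slide as a block, beside 1.18% and 3.75% of all genes, and 3 and 0 under normexp. *Tdrd9* was at -0.77, -0.65 and -0.38 in *Smad4 (Stella)* ovaries 1 to 3 and 1.71, 1.05 and 2.0 in DKO ovaries 1 to 3, with DKO ovary 3 the highest of both groups (2.19 ± 0.23 SE, adjusted p = 0.000356). *Tdrd1*, *Tdrd5* and *Tdrd12*, Tudor proteins of the germ granule, rose by 1.74, 2.03 and 1.58, *Henmt1*, which methylates piRNA ends, by 2.25, and the Argonaute *Piwil2* by 1.33. *Piwil1* was not well above background on any *Smad4 (Stella)* array and was at least 2.32-fold higher. *Tdrkh* went the other way, from -0.44, -0.21 and -0.39 to -0.99, -1.27 and -1.03 (-0.75 ± 0.11 SE, adjusted p = 0.00189). The granule genes *Ddx4*, *Mael* and *Mov10l1* differed by 0.39, 0.35 and 0.19 and were not called.

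Pluripotency and primordial germ cell factors had 9 of 21 members called higher and 0 lower, beside 4.4% and 4.03% of all genes. Their median was 1.25, against 0.01 over all genes tested, and all 21 fold changes were above 0. The list was chosen with earlier results of these data known. This count moved with single arrays and with the scaling. It was 1 without scaling and 2 under normexp, 2 with the slide as a block, 2 without DKO ovary 1 and also without DKO ovary 2, and 1 without *Smad4 (Stella)* ovary 2 and also without *Smad4 (Stella)* ovary 3. *Nanos3*, which protects primordial germ cells, was at -4.56, -4.79 and -4.69 in *Smad4 (Stella)* ovaries 1 to 3 and -1.29, -1.34 and -2.85 in DKO ovaries 1 to 3 (2.85 ± 0.39 SE, adjusted p = 0.00154). *Lin28a*, the repressor of let-7 microRNAs, was at -2.05, -2.66 and -2.93 against -0.97, -0.96 and -1.17 (1.52 ± 0.39 SE, adjusted p = 0.0289), and *Kit* at 0.10, -0.38 and -0.39 against 0.36, 0.55 and 0.64 (0.74 ± 0.20 SE, adjusted p = 0.0345). *Kit* and *Nanos3* were the 2 that kept the call with the slide as a block. *Pou5f1* was at -0.02, -0.45 and 0.01 against 1.31, 1.07 and 1.01 and *Sox2* at 0.86, 0.16 and -0.12 against 1.12, 1.73 and 1.41, and neither was called (adjusted p = 0.0629 and 0.107), although every DKO array lay above every *Smad4 (Stella)* array in both.

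Nodal signalling, active in early male germ cells, was carried by few members. Of 16 tested, 3 were called higher and 0 lower, beside 4.4% and 4.03% of all genes, with a median of 0.45. The ligand *Nodal* was at -3.79, -4.79 and -4.49 in *Smad4 (Stella)* ovaries 1 to 3 and -1.53, -0.84 and -2.46 in DKO ovaries 1 to 3, about 6.72-fold higher (2.75 ± 0.40 SE, adjusted p = 0.00198, and 0.0474 with the slide as a block). *Gdf3*, a related ligand, rose by 1.66 and the coreceptor *Cfc1* by 0.72, and both lost the call under that block (adjusted p = 0.0705 and 0.0744). The list had 1 gene called without DKO ovary 1, DKO ovary 2, *Smad4 (Stella)* ovary 2 or *Smad4 (Stella)* ovary 3. *Lefty1*, a target and inhibitor of the pathway, was at -1.81, -3.94 and -3.06 against -1.59, -0.72 and -1.55 (adjusted p = 0.159), its *Smad4 (Stella)* arrays spread widely. The other coreceptor, *Tdgf1*, differed by 0.50 and the receptors *Acvr1b* and *Acvr2b* by 0.11 and 0.08. BMP ligands, receptors, SMADs and targets had 0 of 20 members called by limma, close to the 8.43% of all genes called in either direction, and a median of -0.04. The methods' t-test at an unadjusted p under 0.05 called 0 of the 20 as well, while limma called 2 lower without DKO ovary 3 and 1 higher without *Smad4 (Stella)* ovary 1 and within slide 3. With the slide as a block 0 were called.

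**Figure D4:**
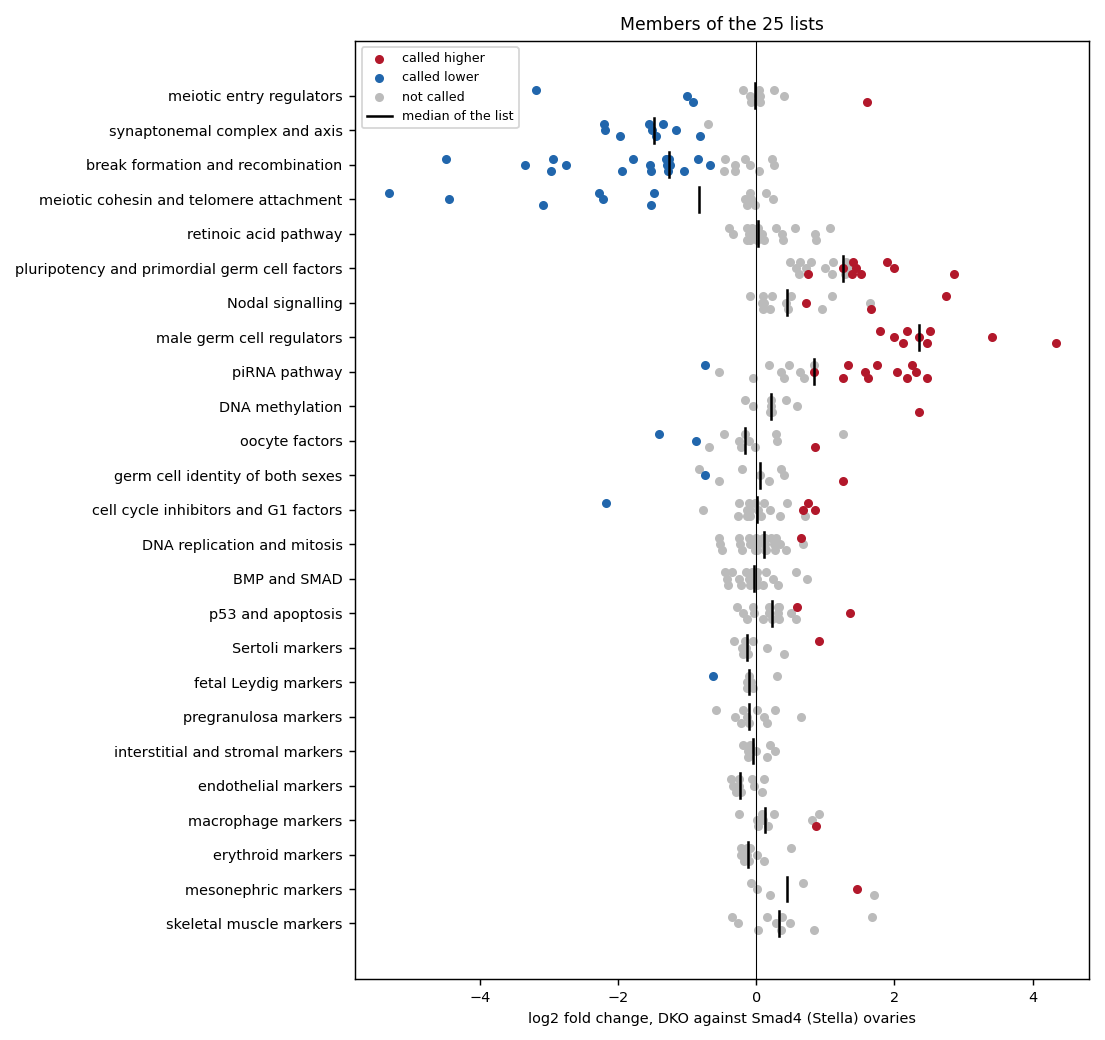
Log2 fold change of DKO against *Smad4 (Stella)* ovaries for the tested members of 25 lists. Each point is a gene, coloured by its call, and the black bar is the median of the list. The 3 lists of meiotic chromosome genes lie to the left, with medians from -1.49 to -0.83, and the male germ cell regulators to the right, with a median of 2.35, while the 9 lists of somatic markers have medians from -0.23 to 0.44.

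Among the 10 largest rises of genes detected in both groups were *Nanos2*, *Hrh1*, *Drc1*, *Pdzk1*, *Egr4*, *Gtsf1l*, *Khdc1b*, *Slc32a1* and *Nanos3*. *Hrh1*, the histamine H1 receptor, was at -4.79, -7.30 and -6.44 in *Smad4 (Stella)* ovaries 1 to 3 and -0.85, -2.0 and -2.68 in DKO ovaries 1 to 3 (4.34 ± 0.67 SE, adjusted p = 0.00266). It was well above background on 1 of 3 *Smad4 (Stella)* arrays, as was *Nanos2*, and under normexp its difference was 1.90 and not called (adjusted p = 0.0624). *Drc1*, of the regulator complex of ciliary dynein, was at -2.45, -2.95 and -2.89 against 2.03, 0.57 and -0.08 (3.60 ± 0.45 SE, adjusted p = 0.000886), and *Pdzk1*, a scaffold protein, at -3.61, -4.19 and -4.24 against 0.18, -0.20 and -1.48 (3.51 ± 0.61 SE, adjusted p = 0.00517). *Gtsf1l*, a relative of a piRNA factor, rose by 3.24, *Khdc1b* by 3.05 and *Slc32a1*, a transporter of inhibitory neurotransmitters, by 2.98. *Drc1*, *Egr4* and *Nanos3* kept the call with the slide as a block, and the other 6 of these 9 did not, with adjusted p from 0.054 to 0.272. Under normexp *Khdc1b* (1.69, adjusted p = 0.0754), *Slc32a1* (1.45, 0.217) and *Nanos3* (1.73, 0.0502) missed the threshold too. All 9 were higher in control testes than in control ovaries as well. *Padi2*, *Lhx5*, *Ctag2*, *Clec2i* and *Ssxb3* were not well above background on any *Smad4 (Stella)* array, *Ssxb3* on 2 of 3 DKO arrays and the others on all 3. Their rises were at least 3.66-fold for *Padi2*, 3.45-fold for *Lhx5*, 3.07-fold for *Ctag2*, 3.02-fold for *Clec2i* and 2.77-fold for *Ssxb3*, and none of the 5 was called under normexp, with differences from 1.0 to 1.28. *Khdc1b*, *Spdye4b*, *Nlrp4c*, *Ctag2* and *Ssxb3* have close relatives in the genome, so their probes may read more than 1 gene.

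*Ctag2* and *Ssxb3* are on the X chromosome, whose genes were counted as a group. Of 709 X-linked genes tested, 59 were called higher, or 8.32%, against 4.4% of all genes, and 42 lower, or 5.92%, against 4.03%. The difference in these shares was not tested. *Nxf2*, an X-linked germ cell gene for RNA export, was at -1.06, -1.89 and -1.79 in *Smad4 (Stella)* ovaries 1 to 3 and 1.28, 0.59 and 0.12 in DKO ovaries 1 to 3 (2.24 ± 0.30 SE, adjusted p = 0.00137). *Esx1*, an X-linked homeobox gene, was at -4.44, -4.83 and -4.48 against -2.45, -2.33 and -2.47 (2.17 ± 0.24 SE, adjusted p = 0.000453), and both kept their calls with the slide as a block (adjusted p = 0.0451 and 0.00351). These 2 genes were chosen after their values were seen. *Ssxb1* and *Ssxb2* rose beside *Ssxb3*, and these near-identical copies may not be told apart by a probe.

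Male and female germ cell genes moved in opposite directions. The study had drawn up lists of 386 male and 360 female germ cell genes from earlier E13.5 arrays, independent of these 12, of which 373 and 344 were tested here. In DKO against *Smad4 (Stella)* ovaries, 205 of the male list (55.0%) were called higher and 1 lower, with a median of 1.03. Of the female list, 0 were called higher and 241 (70.1%) lower, with a median of -1.10. Over all genes, 4.4% were called higher and 4.03% lower. With the slide as a block the male list had 41 called higher and 2 lower, and the female list 1 and 172. Over all genes these shares were 1.18% and 3.75%. Under normexp 37 of the male list were called higher and 75 of the female list lower, with medians of 0.90 and -0.57, and without scaling these counts were 56 and 191. Leaving out DKO ovary 1 lowered the male count to 124, leaving out *Smad4 (Stella)* ovary 2 to 107 and leaving out *Smad4 (Stella)* ovary 3 to 103. The median of the male list was 1.36, 1.03 and 0.75 above the mean of the *Smad4 (Stella)* ovaries in DKO ovaries 1, 2 and 3, and 1.27 to 1.66 above it in the control testes. For the female list these medians were -1.09, -1.20 and -1.02 in the DKO ovaries and in the testes from -1.73 to -1.70. The exception in the male list was *Baiap3*, at -3.20, -3.26 and -3.64 in *Smad4 (Stella)* ovaries 1 to 3 and -4.26, -4.71 and -5.06 in DKO ovaries 1 to 3 (-1.30 ± 0.24 SE, adjusted p = 0.00656).

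**Figure D5:**
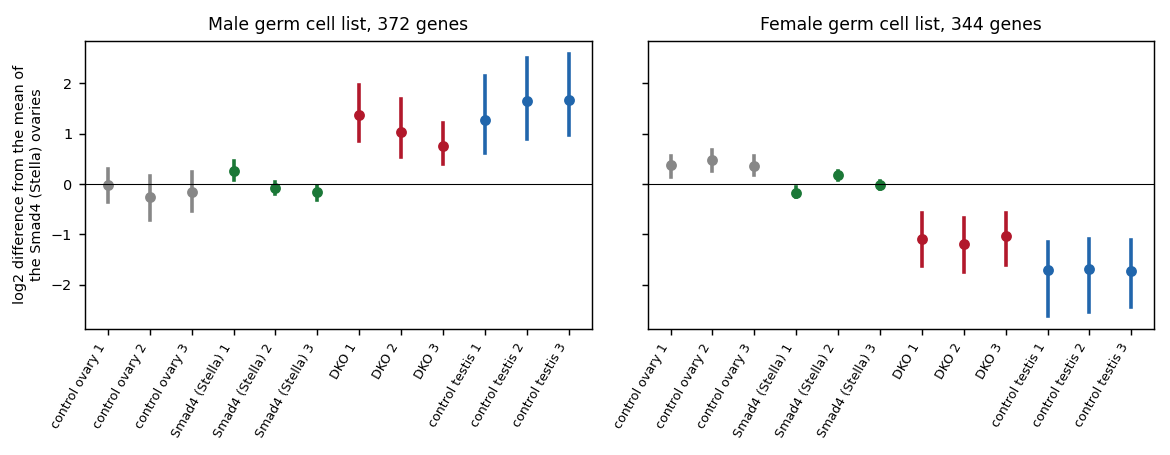
Median (point) and quartiles (line) over 372 male and 344 female germ cell genes of the log2 difference from the mean of the *Smad4 (Stella)* ovaries, for each of the 12 arrays. The DKO arrays lie at 0.75 to 1.36 for the male list and between -1.20 and -1.02 for the female list, apart from all *Smad4 (Stella)* and control ovaries, with the testes further out for the female list.

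Most of the called genes lay outside these lists, 617 of the 822 higher and 510 of the 752 lower. Between control testes and control ovaries, where 17.2% of all genes were called higher and 16.7% lower, 443 of the 822 were called higher as well and 36 lower, and 651 of the 752 were called lower and 15 higher. Thus 53.9% of the genes that rose and 86.6% of those that fell were called in the same direction in the testis. Among the rest that rose, *Pou3f1*, a POU factor, rose by 1.61 and *Dll1*, a Notch ligand, by 1.16, while both were lower in testes than in control ovaries (log2 differences of -0.75 and -1.10). Both genes were chosen after their values were seen. Testes and DKO ovaries were on different slides, and 133 of the male list were called higher in testes than in DKO ovaries and 31 lower, beside 13.1% and 12.7% of all genes.

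Oocyte factors and general germ cell genes were called in both directions. Of 13 oocyte factors tested, 2 were called lower and 1 higher, beside 4.03% and 4.4% of all genes, with a median of -0.16. The numbers were 1 and 1 with the slide as a block and 0 under normexp. *Figla*, needed for primordial follicles, was at 1.21, 1.73 and 1.29 in *Smad4 (Stella)* ovaries 1 to 3 and -0.04, -0.78 and 0.83 in DKO ovaries 1 to 3 (-1.41 ± 0.33 SE, adjusted p = 0.0212), and DKO ovary 3 was the highest of its group (-0.58 with the slide as a block, adjusted p = 0.345). *Taf4b*, a subunit of TFIID in germ cells, fell by 0.87 (adjusted p = 0.00195, with the sign turned under normexp), and *Ooep*, of the maternal complex of the oocyte, rose by 0.85 (adjusted p = 0.0425). *Lhx8* was at -3.12, -3.83 and -3.80 against -2.33, -3.38 and -1.30, highest in DKO ovary 3, with an adjusted p = 0.0828 that became 0.0206 with the slide as a block. *Dazl* and *Ddx4*, expressed by germ cells of both sexes, were at 3.38, 3.47 and 3.17 and 4.88, 4.89 and 4.66 in *Smad4 (Stella)* ovaries and at 3.33, 3.57 and 3.27 and 5.48, 5.04 and 5.09 in DKO ovaries. Their differences of 0.05 ± 0.14 SE and 0.39 ± 0.15 SE were not called, and neither gene was below the *Smad4 (Stella)* range on all DKO arrays. Of the 9 members of that list tested, *Tex19.1* was called higher (1.26, adjusted p = 0.0259, but 0.0582 with the slide as a block) and *Tdrkh* lower.

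In the cell cycle the clearest change was in *Ccne2*, the E2-type cyclin of the G1 to S transition, at 0.41, 0.40 and 0.16 in *Smad4 (Stella)* ovaries 1 to 3 and -1.92, -2.02 and -1.61 in DKO ovaries 1 to 3 (-2.17 ± 0.15 SE, adjusted p = 2.7e-05, and 0.00215 with the slide as a block). *Ccne1* differed by -0.01 and was not called. *Rb1*, *Cdk6* and *E2f3* were called higher, by 0.85, 0.75 and 0.68, and none of the 3 passed both thresholds with the slide as a block. Of 20 cell cycle inhibitors and G1 factors tested, 3 were called higher and 1 lower, beside 4.4% and 4.03% of all genes. Their median was 0.003. The inhibitors *Cdkn1a*, *Cdkn1b* and *Cdkn2b* differed by 0.44, -0.10 and 0.71 without a call. Among 26 genes of DNA replication and mitosis, 1 was called higher, *Aurkb* (0.65, adjusted p = 0.0231), beside 4.4% of all genes, and the median was 0.10. This call was lost with the slide as a block (adjusted p = 0.258). Of 17 genes of p53 and apoptosis, 2 were called higher, or 11.8%, beside 4.4% of all genes, and the count is small. These were *Pmaip1* (1.36) and *Bax* (0.59), both of which promote cell death, and neither was called with the slide as a block.

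Few somatic markers were called. Over 9 lists with 82 genes tested, 3 were called higher and 1 lower, or 4.88%, beside 8.43% of all genes called in either direction. Of the 82 genes, 70 stayed within 1.5-fold, as did most genes, with quartiles of -0.19 and 0.24 over all genes tested. The median of the 82 was -0.04. *Foxl2* and *Rspo1*, of the pregranulosa cells of the ovary, were at -3.84, -3.76 and -3.45 and 5.84, 6.07 and 5.99 in *Smad4 (Stella)* ovaries and -3.59, -3.33 and -3.33 and 6.28, 5.98 and 5.97 in DKO ovaries. *Sox9*, the male switch of supporting cells, was at -3.58, -2.93 and -2.80 against -3.03, -3.23 and -3.18, against 0.10, 0.05 and -0.14 in the control testes. Limma called 0 of 11 pregranulosa and 1 of 10 Sertoli genes. The Sertoli gene was *Amh*, well above background on 0 of 3 *Smad4 (Stella)* and 1 of 3 DKO arrays, so that its rise rests on dim values. It was not called under normexp, under quantile normalization or with the slide as a block, and lay at -5.08, -5.03 and -5.50 in the DKO ovaries against 1.33, 1.34 and 1.32 in testes. The others were *Cd68* of macrophages (0.86), *Lhx1* of the mesonephros (1.46) and *Star* of steroid cells (-0.62), of which *Star* kept its call with the slide as a block but turned its sign under normexp.

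Single arrays stood apart in 2 somatic lists. The log2 of the summed level of 10 macrophage markers was 3.17 in DKO ovary 1 against 2.26 and 2.37 in the other DKO arrays and 2.07 to 2.22 in the *Smad4 (Stella)* arrays, led by *Adgre1* at 1.82, 0.31 and 0.17 and *Lyz2* at 1.01, -0.76 and -1.83. The log2 of the summed level of 6 mesonephric markers was 1.97 in DKO ovary 3 against 0.63 and 0.83 in the others and 0.62 to 0.65 in the *Smad4 (Stella)* arrays, and *Cdh16* was at -2.14, -2.91 and 1.20 against -3.05, -3.15 and -2.78. Their part in the results was not tested.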

How the data were processed

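RNA of 1 pair of E14.5 gonads per sample was hybridised to 1-colour Agilent mouse arrays, 12 in all, with 3 for each of 4 groups taken from the labels. The authors deposited scanner output (Feature Extraction 11.0.1.1), in which the processed signal is a background-corrected intensity on a linear scale, and a table that holds these intensity values too. Precision is limited by how few the arrays are.

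Log2 processed intensity was reduced by the 75th percentile of each array over the non-control spots. Spots of a probe and probes of a gene were averaged, after keeping probes that all 3 arrays of some group showed well above background. A linear model over all 12 arrays was fitted with limma 3.58.1 in R 4.3.3 (data.table version 1.17.8), and Benjamini-Hochberg adjustment covered all 18666 genes. The steps were tested on simulated data. Genes named are the 10 largest rises and falls among called genes detected in both groups without overlap, the 5 largest bounds either way, and list members. The members and lists were chosen with earlier results of these data known, and the male and female lists are the study's, by symbol. Bounds set the brighter group's mean against the lowest signal well above background or the dim probe's own, whichever was higher. Gene symbols are those of the array, updated through RefSeq tables for the 31797 of 41174 probes that matched. Alternatives were quantile normalization, no scaling, normexp with offset 50, the brightest probe, no filter, other thresholds, the slide or replicate number as a block, only the 6 arrays, the methods' t-test (Student's, on the same values), and leaving out each array. A few list members and 1 of the largest rises are not reported here.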

Additional observations from a re-analysis of the deposited data

How the results depend on the processing

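The 822 genes called higher and 752 called lower became 112 and 405 without scaling, 86 and 138 under normexp, 433 and 386 at 2-fold, and 11 and 72 in the methods' t-test with adjusted p. The higher count alone moved by over 1.5 times with the slide as a block (220), within slide 3 (187) and with only the 6 arrays compared (497). Leaving out 1 array gave 354 to 1069 higher and 499 to 823 lower. *Stra8* missed the threshold with the slide as a block (-0.96, adjusted p = 0.0686), within slide 3 (-0.96, limma adjusted p = 0.0913) and in the methods' t-test (-0.92, adjusted p = 0.0615), and ranged from -1.01 to -0.85 when 1 array was left out. Under normexp the sign turned for *Tafa1* (0.12), *Cntd1* (0.20), *Hsf2bp* (0.36), *Mcmdc2* (0.48), *Mei4* (0.51), *Taf4b* (0.15) and *Star* (0.22). Of the called genes named or listed, without *Stra8* and with the uncalled *Smad4*, 64 missed the threshold under normexp with their sign kept. For 33 the call did not change, and 7 turned their sign. The cause was not tested. Replicate numbers did not pair the arrays, with correlations of 0.13, -0.07 and 0.06 between the deviations of same-numbered arrays. With the replicate number as a block, 733 genes were called higher and 734 lower, and *Stra8* was at -0.92 (limma adjusted p = 0.0243). Dim probes limit the bounds given.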
